A study of Mus musculus with 19 samples.

Results

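Cortical gliosis differed widely among the libraries of male P301S/E4 mice, which carry the human P301S tau transgene and the human APOE4 allele, and the libraries with severe gliosis were compared here with those with moderate gliosis. The members were selected on a measured value. Libraries with at least 1 count per 1000000 reads (CPM) on Cst7, an inhibitor of cysteine proteases that microglia turn on when they are activated, were kept, and those with Cst7 at 50 CPM or more were called severe and those from 1 to below 50 CPM moderate. This kept 15 of the 19 libraries, 8 severe and 7 moderate. Among the moderate libraries 2 pairs of lemborexant libraries were nearly alike and were summed, which left 13 units, 8 severe and 5 moderate. A unit is named by its treatment and its number, as Veh 7 or Lem 3+8 for a summed pair.

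All animals were 41 weeks old and had the same genotype label, P301S/E4. The label Lem stands for lemborexant, an orexin receptor antagonist used against insomnia, which was gavaged once daily at zeitgeber time 13 (30 mg/kg, from 7.5 to 9.5 months of age), and Veh stands for the vehicle, 0.5% methylcellulose. The severe class held 3 Lem and 5 Veh units and the moderate class 3 Lem and 2 Veh units. The labels name neither the promoter that drives the tau transgene nor the animal behind each library. Reads were counted on the mouse genome, so the levels of Mapt and Apoe are those of reads that matched the mouse genes.

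In tauopathy, phosphorylated tau gathers in neurons, and microglia and astrocytes around them become reactive. Activated microglia turn down part of their resting programme and turn on a set of genes for phagocytosis, lipid handling and lysosomal breakdown, in a step that depends on the receptor Trem2 and its adaptor Tyrobp. Reactive astrocytes make more of the intermediate filament protein Gfap and of secreted factors such as Serpina3n. In P301S mice gliosis comes with complement and interferon transcripts, with T cells and with loss of neurons, and animals of one age are known to differ.

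Cst7 lies at chr2:150570415-150578944 (GRCm38). The moderate units held 17.7 CPM of Cst7 in Lem 3+8, 23.6 in Veh 8, 26.7 in Lem 7, 40.2 in Lem 4+9 and 41.3 in Veh 9. The severe units ran from 56.9 CPM in Veh 7 through 64.8 in Veh 6, 68.7 in Lem 2, 70.4 in Veh 2, 94.7 in Lem 5 and 107 in Veh 3 to 123 in both Lem 6 and Veh 5. No unit lay between 41.3 and 56.9 CPM, so Veh 9 was just outside the severe class and Veh 7 just inside it. The 4 libraries left out held at most 0.26 CPM. They formed 3 units, Veh 1, Veh 4 and the nearly alike pair Lem 1+10.

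Total estimated counts ran from 22753316 to 31795633 reads in the 15 libraries. Library numbers in the labels fall in the ranges 859 to 933 and 1064 to 1602, and all 8 severe libraries were in the second range. Both moderate Veh units were in the first, and Lem 3+8 and Lem 4+9 joined a library of each, so that among Veh units class and number range cannot be told apart. Lem 7 stood apart with hypothalamic transcripts (1222 CPM of Pmch and 473 CPM of Avp, at most 2.16 and 8.18 CPM in any other unit) and with 15.2 CPM of the cortical excitatory marker Slc17a7, which was at 91.1 to 151 CPM in the other members. Veh 7 held 215 CPM of the hepatocyte transcript Cyp2e1, which was at 3.66 CPM or less in the other units. Choroid plexus transcripts summed to between 187 and 13750 CPM among members. The 3 units with the most Cst7, Veh 3, Lem 6 and Veh 5, also had the most reads on ribosomal RNA models (3.23 to 3.83%, against 1.38 to 2.80% in the other 10 members) and the highest level of short over long genes.

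Because Cst7 divided the same libraries whose other genes are described, the difference between severe and moderate units is given as values, with no test. A log2 difference is that of edgeR's quasi-likelihood fit with treatment as a covariate, with its standard error (SE), and a gene is called not overlapping where every severe unit lay above, or every one lay below, every moderate unit in CPM scaled with TMM factors. Levels from here on are on that scale. Of 19933 genes fitted, 323 (1.62%) were higher in every severe unit and 142 (0.712%) lower in every severe unit. At least 2-fold differences were found in 83 of the first (0.416%) and 24 of the second (0.12%). With the units' mean level of short genes over that of long genes as a covariate these were 14 and 14. Without Veh 3, Lem 6 and Veh 5 the higher ones numbered 25, without Lem 6 alone 47 and without Lem 4+9 150, and without Lem 2 the lower ones numbered 129. On the deposited TPM values, which are scaled to gene length, 16623 genes had a mean of at least 1 TPM, and the split turned to 98 higher and 322 lower. List members below that mean count as not separated on that scale. On that scale the median gene was at -0.19, and it was at -0.02 in the CPM fit, so a difference on the TPM scale is read relative to that shift. Without Lem 7 and Veh 7, a comparison with 11 units, 550 genes were higher and 349 lower. Among libraries numbered 1064 to 1602 alone, where Lem 3, Lem 4 and Lem 7 were the moderate ones, 633 were higher and 600 lower. Classes with fewer units overlap less often by chance alone, so counts from fewer units are not comparable with 323 and 142.

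Microglial transcripts were among the genes higher in every severe unit. The classes were set by Cst7, so its own difference is fixed by the rule: 16.9 to 40.7 CPM in moderate units and 57.7 to 147 in severe ones. C1qa, which codes for a chain of the complement starter C1q (chr4:136895917-136898803), was at 81.1 CPM in Lem 3+8, 81.7 in Veh 8, 84.4 in Lem 7, 117 in Lem 4+9 and 135 in Veh 9. In severe units C1qa had a lowest value of 158 CPM, a median of 208 and a highest of 414. The 2 classes did not overlap, and the log2 difference was 1.34 ± 0.28 (SE). In bulk cortex more microglia and more RNA per microglial cell cannot be told apart.

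Trem2, the lipid-sensing receptor of microglia, was at 74.1 to 114 CPM in moderate units and at 145 to 327 in severe ones, a log2 difference of 1.16 ± 0.23. Its adaptor Tyrobp was at 68.0 to 120 CPM and at 142 to 468 CPM. Itgax, the integrin chain CD11c, which resting microglia hardly express, was at 8.73 CPM in Lem 3+8, 10.4 in Veh 8, 13.9 in Lem 7, 16.01 in Lem 4+9 and 14.7 in Veh 9, and at 22.8, 28.2 and 31.6 CPM as the lowest, median and highest severe value. The classes did not overlap, and the log2 difference of 1.11 ± 0.15 was 1.04 without Veh 3, Lem 6 and Veh 5. C1qa moved further when those 3 units were left out, from 1.34 to 0.87. Clec7a, the β-glucan receptor dectin-1, was at 20.3 to 43.4 CPM in moderate and 49.8 to 135 CPM in severe units (log2 difference 1.47 ± 0.26).

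The promoters of Cst7 and Clec7a are shown because the genes were not overlapping between classes and nearly off in the units left out. Both run from 250 bases before to 50 after the start of the gene (RefSeq, GRCm38.p6). Capitals mark GAGGAA, the core of the motif of PU.1, the myeloid lineage factor, looked for on both strands.
Cst7, chr2:150570165-150570464, plus strand: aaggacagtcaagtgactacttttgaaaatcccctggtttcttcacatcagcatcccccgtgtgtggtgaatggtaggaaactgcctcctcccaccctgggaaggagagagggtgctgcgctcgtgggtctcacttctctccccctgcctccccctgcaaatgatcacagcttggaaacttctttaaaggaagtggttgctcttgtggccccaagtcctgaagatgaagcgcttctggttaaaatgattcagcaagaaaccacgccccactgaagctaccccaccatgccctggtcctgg
Clec7a, chr6:129472730-129473029, minus strand: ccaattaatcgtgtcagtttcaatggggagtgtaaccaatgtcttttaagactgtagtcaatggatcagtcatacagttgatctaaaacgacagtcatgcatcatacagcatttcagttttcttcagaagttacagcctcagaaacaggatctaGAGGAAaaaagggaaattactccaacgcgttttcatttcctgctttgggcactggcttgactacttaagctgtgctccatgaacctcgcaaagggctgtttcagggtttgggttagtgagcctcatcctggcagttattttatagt
The Clec7a promoter held 1 match, which starts 96 bases before the gene, and the Cst7 window held 0. The letters were in 28.3% of all 27025 promoters listed and in 26.8% of those of the genes fitted. Among genes higher in every severe unit with a listed promoter they were in 97 of 241 (40.2%), and among genes lower in every severe unit in 24 of 90 (26.7%). A match describes the letters of this window and is not a measured binding site.

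Of 30 genes listed for disease-associated microglia, all passed the filter on low counts, 17 were higher in every severe unit and none was lower. For this list and those below, the shares over all genes fitted were 1.62% higher and 0.712% lower. Cst7, whose separation the rule fixed, is 1 of the 30 and of the 17, and without it 16 of 29 were higher in every severe unit. Their median log2 difference was 1.05 with Cst7 and 1.02 without it, and it was -0.02 over all genes fitted. Besides those above, the 17 included Lpl, which splits triglycerides (27.5 to 56.0 CPM in moderate and 78.2 to 106 CPM in severe units), the surface protein Cd52 (14.4 to 28.0 and 34.1 to 131 CPM), the inhibitory receptor Lilrb4a, the receptor kinase Axl, the tetraspanin Cd9 and the growth factor Csf1. The median was 0.77 without Veh 3, Lem 6 and Veh 5 and 0.65 with the units' level of short over long genes as a covariate. Within Veh units alone it was 0.76 and within Lem units 1.27. On the log2(TPM + 1) scale it was 0.75, with 8 genes not overlapping.

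Apoe, the lipid carrier, and the secreted phosphoprotein Spp1 belong to the same list, and their classes overlapped. Reads on mouse Apoe were at 48.0 to 130 CPM in moderate and at 86.5 to 376 CPM in severe units. The highest moderate value was in Lem 7 and the highest severe value in Lem 6. The animals carry human APOE4, and how many of these reads came from its transcript was not tested. Spp1 was at 60.4 to 209 and at 147 to 487 CPM. The apolipoprotein Apoc1 had a log2 difference of 2.26 ± 0.71. Its levels of 3.61 to 21.3 CPM in moderate and 14.7 to 114 CPM in severe units overlapped, and the highest value was that of Veh 7, the unit with the hepatocyte transcript.

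Markers of resting microglia gave a mixed picture. Of 18 listed, 4 were higher in every severe unit, among them Csf1r, the receptor for the factor microglia need to survive (147 to 235 and 254 to 305 CPM), Tgfbr1 and the Fc receptor-like Fcrls. The purinergic receptor P2ry12 was at 39.9 to 78.1 CPM in moderate and 63.3 to 120 CPM in severe units, and Tmem119 at 16.9 to 32.5 and 26.5 to 39.6 CPM. Both overlapped, with log2 differences of 0.32 ± 0.17 and 0.18 ± 0.15, which were 0.04 and -0.01 on the log2(TPM + 1) scale. The median of the list was 0.47, and it was 0.26 without Veh 3, Lem 6 and Veh 5. On the log2(TPM + 1) scale 1 of the 18 was separated.

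Lysosomal genes accompanied the microglial ones. Of 30 listed, 12 were higher in every severe unit and none lower, with a median of 0.63. On the log2(TPM + 1) scale 2 of the 30 were separated. Cathepsin D, the main aspartic protease of lysosomes (Ctsd), was at 1567 CPM in Lem 3+8, 1795 in Veh 8, 1598 in Lem 7, 2392 in Lem 4+9 and 2046 in Veh 9, against 2458, 3342 and 5147 CPM as the lowest, median and highest severe value. Its classes were close to touching, and the log2 difference was 0.89 ± 0.19. In TPM the classes of Ctsd overlapped, with 1765 in the moderate Lem 4+9 and 1615 in the severe Veh 7. Cathepsin S (Ctss), which trims the invariant chain of MHC class II, was at 362 to 583 and at 693 to 1559 CPM. Cd68, the microglial lysosome protein used to stain activated cells, was at 63.5 to 118 CPM in moderate units, and its lowest severe value was also 118 CPM. Progranulin (Grn) and Npc2, a sterol carrier of the lysosome, were also in the 12.

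Genes of antigen presentation by MHC class II were not overlapping in 8 of 10 cases, all higher in severe units, with a median log2 difference of 1.08. On the log2(TPM + 1) scale 6 of the 10 were separated. Cd74, the invariant chain, was at 139 CPM in Lem 3+8, 204 in Veh 8, 241 in Lem 7, 240 in Lem 4+9 and 258 in Veh 9. In severe units it had a lowest value of 367 CPM, a median of 472 and a highest of 1172, the last in Veh 5. The class II chain H2-Aa went the same way, at 10.6 to 29.3 CPM in moderate and 31.1 to 154 CPM in severe units. Its log2 difference of 1.46 ± 0.41 was 0.98 without Veh 3, Lem 6 and Veh 5. On the deposited TPM values the classes of H2-Aa overlapped, with 42.7 in the moderate Lem 4+9 and 40.4 in the severe Veh 7. For MHC class I, 2 of 18 genes were higher in every severe unit, the light chain B2m (263 to 453 and 467 to 1222 CPM) and the nonclassical H2-Q7. The share higher over all genes fitted was 1.62%. On the log2(TPM + 1) scale none of the 18 was separated.

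**Figure D1:**
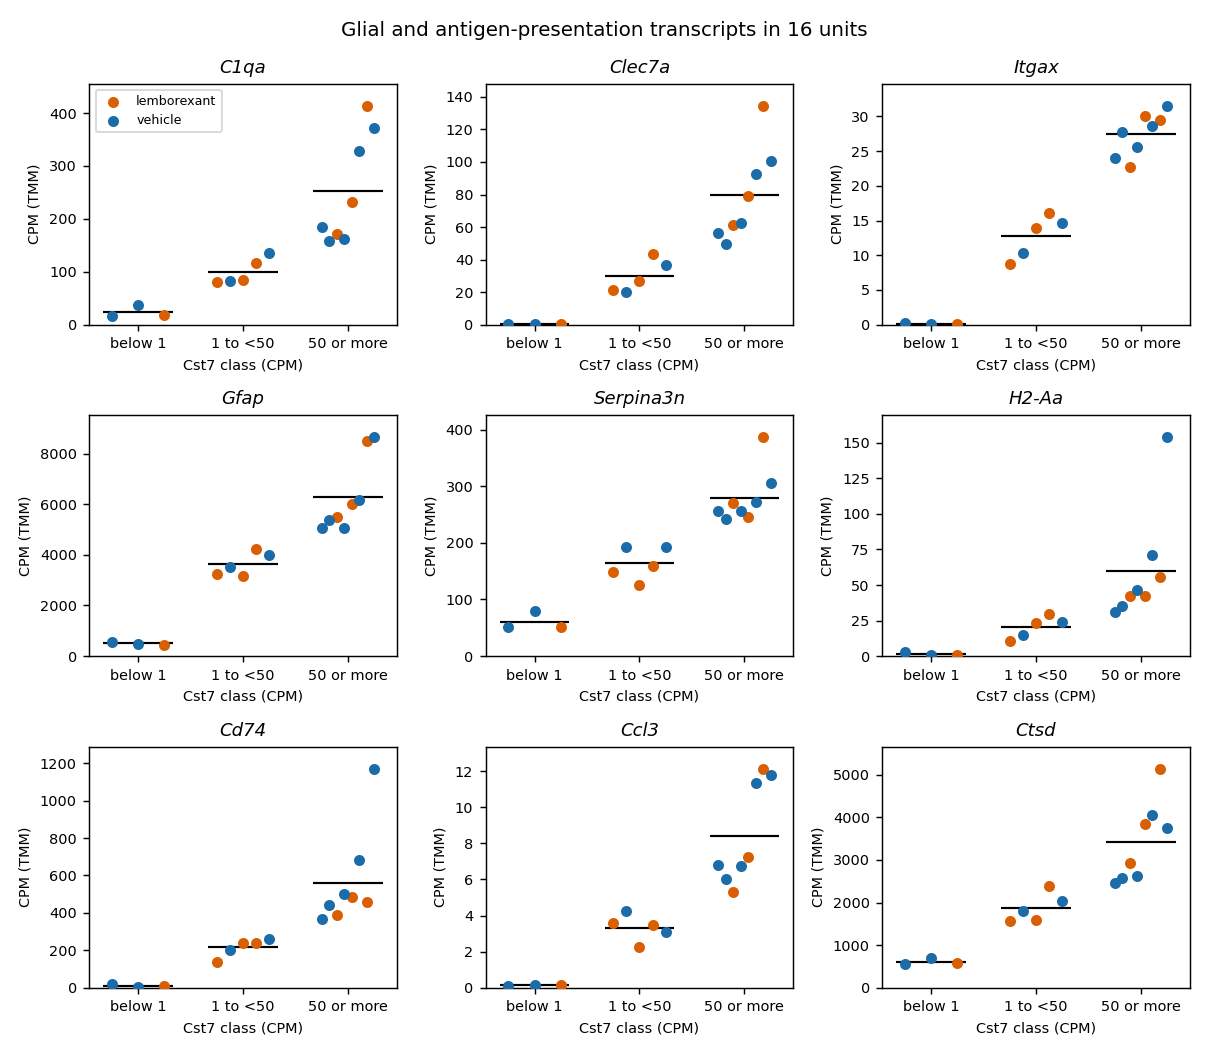
Level of 9 transcripts in CPM with TMM factors (y axes, from 0) in each of 16 units, grouped by Cst7 class in CPM (x axes: below 1, 1 to below 50, and 50 or more) and coloured by treatment. Each point is a unit and each line the mean of a class. In all 9 panels every severe unit lay above every moderate unit in CPM. Gfap was at 3150 to 4242 CPM in moderate and 5047 to 8651 CPM in severe units. On the deposited TPM values the classes of Gfap, Serpina3n, H2-Aa and Ctsd overlapped. Veh 5 stood alone at the top for H2-Aa and Cd74.

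Of 20 complement genes listed, 17 had a positive fitted difference, with a median of 0.56, and 14 overlapped between classes. The other 6 were higher in every severe unit: C1qa, C1qb, C1qc, the receptor C3ar1 and the integrin chains Itgax and Itgb2. The integrin chains are also in the microglial list. On the log2(TPM + 1) scale 4 of the 20 were separated. C3, the central component, was at 12.1 to 38.8 CPM in moderate and 15.4 to 105 CPM in severe units. The severe units Veh 2, Veh 6 and Veh 5 held 15.4, 16.3 and 19.6 CPM, within the moderate range, and the other 5 severe units held 40.6 to 105. C4b was at 245 to 443 and at 311 to 708 CPM, with a log2 difference of 0.44 ± 0.18, and its lowest severe value was that of Veh 5.

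None of 26 interferon-stimulated genes was separated between classes, and 19468 of all 19933 genes fitted overlapped too. All 26 had a positive fitted difference, and their median was 0.86. The sum of their levels was 430 to 1053 CPM in moderate units. In severe units it was 832 CPM in Veh 6 and 901 in Veh 2, and 1514 to 2112 in the other 6. Ifit3, an antiviral effector, held 89.3 CPM in Veh 6 and 106 in Veh 2 against 188 to 251 in the other severe units, and the chemokine Cxcl10 held 11.4 and 14.6 CPM against 22.6 to 34.2. Those 2 units thus had severe Cst7 levels beside interferon transcripts within the moderate range. For the step from the units below 1 CPM to the moderate units the median of the same list was 2.61.

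Chemokines included the largest difference among the genes separated in CPM with a symbol and a mean of at least 1 CPM. Cxcl1, a chemokine for neutrophils, was at 0.16 to 0.62 CPM in moderate and 0.67 to 4.04 CPM in severe units. Its log2 difference was 2.25 ± 0.46 at a level of few reads, and 1.22 within Veh units against 3.19 within Lem units. On the deposited TPM values its classes overlapped, with 1.222 in the moderate Lem 4+9 and 1.133 in the severe Veh 6. Ccl3, made by activated microglia, was at 2.26 to 4.23 and at 5.29 to 12.2 CPM (1.31 ± 0.25). Ccl6 and Cxcl16 were the other chemokines among the 4 of 22 listed cytokine genes that did not overlap, and Csf1 was the fourth. All 4 were higher in severe units, against 1.62% of all genes fitted. The count for this list was also 4 on the log2(TPM + 1) scale. T cell markers all overlapped, 20 of 20, as did 19468 of all 19933 genes fitted. They were at low levels: Cd3e was at 0.38 to 1.30 and 0.77 to 2.86 CPM, and Cd8a at 0.19 to 0.92 and 0.47 to 2.22 CPM. Their median log2 difference was 0.73, and the sum of the list was 36.5 to 50.3 CPM in moderate and 36.9 to 84.7 CPM in severe units.

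Among other genes with large differences, chosen by size, were Klrb1b, a lectin-like receptor of the NK cell family (0.71 to 1.30 and 2.04 to 5.71 CPM), Bcl2a1d, a relative of the survival factor Bcl2 (1.55 to 1.95 and 2.504 to 9.16 CPM), Tgm1, a transglutaminase (0.86 to 2.84 and 3.22 to 7.83 CPM), the Fc receptor Fcgr4 (1.76 to 3.01 and 3.30 to 10.3 CPM) and Afp, the fetal serum protein (0.45 to 0.84 and 0.93 to 3.45 CPM). All 5 were weakly expressed, and in the units below 1 CPM of Cst7 none exceeded 0.80 CPM. On the deposited TPM values the classes of Tgm1, Fcgr4 and Afp overlapped, and those of Klrb1b and Bcl2a1d did not. Proliferation genes overlapped in 19 of 19 cases, as did 19468 of all 19933 genes fitted. Mki67, the usual cycling marker, was at 0.32 to 1.09 CPM in moderate and 0.80 to 2.15 CPM in severe units.

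Astrocyte transcripts were also among the genes higher in every severe unit. Gfap, the intermediate filament of reactive astrocytes (chr11:102887336-102900912), was at 3231 CPM in Lem 3+8, 3513 in Veh 8, 3150 in Lem 7, 4242 in Lem 4+9 and 3981 in Veh 9. Its lowest severe value was 5047 CPM, the median 5755 and the highest 8651. The classes did not overlap in CPM, and the log2 difference was 0.81 ± 0.17. On the deposited TPM values the classes of Gfap overlapped, with 2459 in the moderate Lem 4+9 and 2437 in the severe Veh 3. Serpina3n, a serine protease inhibitor, was at 126 to 194 and at 243 to 387 CPM (0.76 ± 0.14). Its log2 difference was 0.46 within Veh and 1.08 within Lem units. In TPM its classes overlapped, with 139 in the moderate Veh 8 and 137 in the severe Veh 3. Of 32 genes listed for reactive astrocytes, 7 were higher in every severe unit and none lower, with a median of 0.71. On the log2(TPM + 1) scale 2 of the 32 were separated. The 7 included Osmr, the oncostatin M receptor, Aspg, Cd14, Srgn and, from the lysosomal list, Ctsd, and Cd14, Srgn and Ctsd are also microglial transcripts.

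Vim, the filament protein vimentin, and Lcn2, the iron-carrier binder lipocalin 2, overlapped. Vim was at 121 to 227 and at 173 to 545 CPM, and the severe units Veh 2, Veh 6 and Veh 7 were below the highest moderate unit. Lcn2 was at 1.53 to 8.71 and at 8.31 to 33.5 CPM, with a log2 difference of 1.97 ± 0.49. Of 20 markers of resting astrocytes, 1 was separated, the membrane protein Mlc1 (195 to 255 and 259 to 409 CPM). Over all genes fitted 1.62% were higher in every severe unit. The glutamate transporter Slc1a2 had a log2 difference of 0.07 ± 0.14, and the median of the list was 0.12. On the log2(TPM + 1) scale these were -0.15 and -0.13, and none of the 20 was separated. Among oligodendrocyte genes all 20 myelin markers overlapped, as did 19468 of all 19933 genes fitted. The 3 of 13 disease-associated ones that were separated are Serpina3n, Cd9 and B2m, which other cell types also express. On the log2(TPM + 1) scale none of the 13 was separated.

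**Figure D2:**
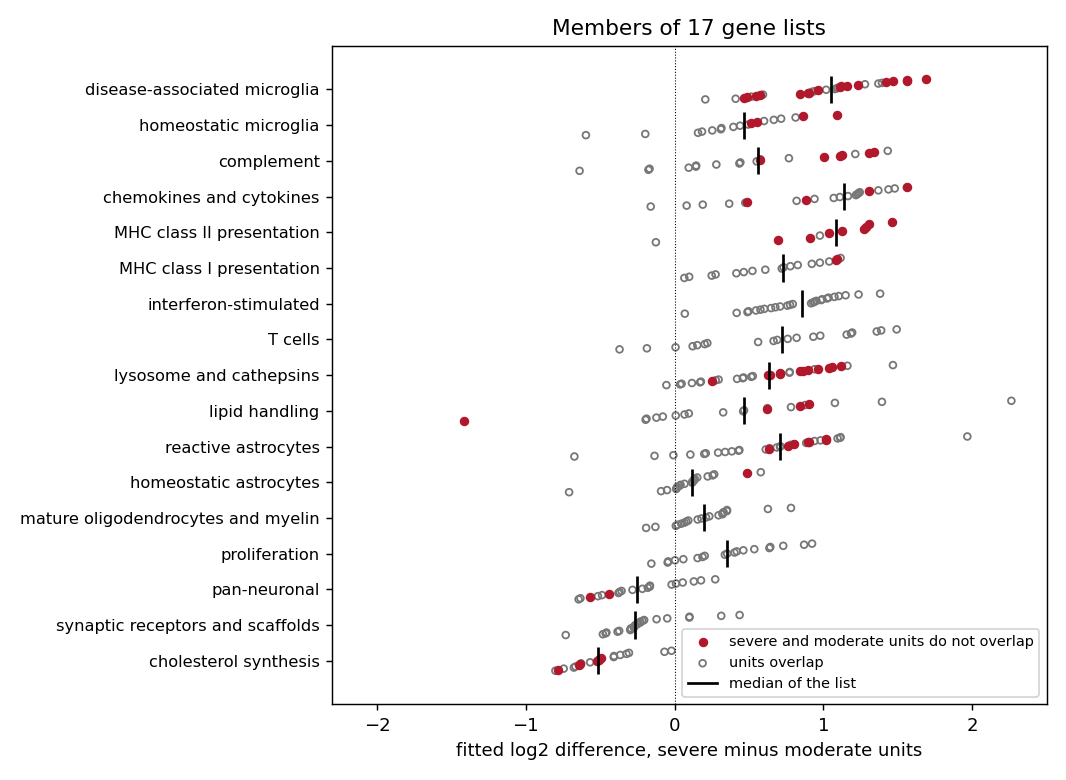
Fitted log2 difference between severe and moderate units (x axis) for each tested member of 17 gene lists (y axis). A filled red point is a gene whose severe and moderate units do not overlap, an open point one whose units overlap, and the black bar is the median of the list. Red points lie to the right for disease-associated microglia (17 of 30, Cst7 among them) and MHC class II (8 of 10), and to the left for cholesterol synthesis (6 of 20).

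Genes of cholesterol synthesis were lower in severe units. Of 20 listed, all had a negative fitted difference, 6 were lower in every severe unit and none was higher, with a median of -0.51. Hmgcs1, an early enzyme of the pathway, was at 213 CPM in Lem 3+8, 168 in Veh 8, 166 in Lem 7, 152 in Lem 4+9 and 153 in Veh 9. In severe units its highest value was 130 CPM, its median 107 and its lowest 69.5. The units below 1 CPM of Cst7 were at 166 to 236 CPM, which overlaps the moderate range. The log2 difference was -0.78 ± 0.15, and -0.59 without Veh 3, Lem 6 and Veh 5.

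The squalene synthase Fdft1 was at 81.9 to 127 CPM in moderate and 51.9 to 78.1 CPM in severe units, a log2 difference of -0.64 ± 0.11. Msmo1, a sterol oxidase of the later steps, was at 77.5 to 101 and at 55.1 to 71.9 CPM. Nsdhl and Lss, the lanosterol synthase, were also among the 6. Stard4, which carries cholesterol between membranes, was at 9.04 to 13.8 and at 4.19 to 9.38 CPM and overlapped through the severe unit Veh 7. The sum of the synthesis list was 991 to 1280 CPM in moderate and 676 to 962 CPM in severe units. On the log2(TPM + 1) scale the median of the list was -0.73, which is -0.54 relative to the median of all genes, and 7 were separated.

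The promoter of Hmgcs1 (RefSeq, GRCm38.p6) is shown as the first of these genes. Capitals mark TCACNCCAC, a form of the sterol regulatory element that SREBP factors read, looked for on both strands.
Hmgcs1, chr13:119690101-119690400, plus strand: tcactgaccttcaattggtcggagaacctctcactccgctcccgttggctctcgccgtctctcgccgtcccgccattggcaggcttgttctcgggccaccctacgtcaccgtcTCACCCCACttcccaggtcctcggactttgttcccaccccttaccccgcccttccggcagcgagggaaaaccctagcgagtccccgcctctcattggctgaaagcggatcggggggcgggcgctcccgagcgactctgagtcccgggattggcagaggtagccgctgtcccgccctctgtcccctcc
It held 1 match, 137 bases before the start of the gene. The letters were in 1.22% of all listed promoters, in 1 of 14 listed promoters of the synthesis list and in 4 of 90 of the genes lower in every severe unit. Both counts are too small to compare.

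Most neuronal genes overlapped between classes, as did 19468 of all 19933 genes fitted. The markers of excitatory neurons had a median log2 difference of -0.05, with 10 of 20 positive, and those of inhibitory neurons one of -0.01, with 8 of 20 positive. None of either list was separated. Without Lem 7 and Veh 7 these medians were -0.16 and -0.11. The median of 20 pan-neuronal genes was -0.25, and -0.09 with the level of short over long genes as a covariate. Without Lem 7 and Veh 7 the pan-neuronal median was -0.35, and among libraries numbered 1064 to 1602 alone -0.41. Of these 20, 2 were lower in every severe unit, Tubb3, the neuronal tubulin (645 to 891 CPM in moderate and 406 to 625.3 CPM in severe units, -0.57 ± 0.13), and the RNA-binding protein Elavl4 (84.4 to 109 and 50.5 to 81.1 CPM). Snap25, of the synaptic release machinery, was at 1658 CPM in Lem 7 and 3261 to 3981 in the other moderate units, and at 1628 to 3737 CPM in severe units. None of 25 synaptic receptor and scaffold genes was separated. Their median was -0.26, -0.37 without Lem 7 and Veh 7, and -0.01 with the level of short over long genes as a covariate. Reads on Mapt, the tau gene of the mouse, were at 727 to 1023 and at 561 to 956 CPM. The log2 difference of -0.35 ± 0.14 was -0.16 with that covariate. The animals carry a human tau transgene, and how many of these reads came from its transcript was not tested.

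Several of the genes lower in severe units depended on 1 moderate unit for their size. Sytl4 and Scn9a had the largest log2 differences, -2.83 ± 0.93 and -2.42 ± 0.77, and Lem 7, the unit with hypothalamic transcripts, held 38.6 and 48.2 CPM of them, against 1.42 to 2.09 and 2.51 to 3.12 CPM in the other 4 moderate units. In CPM the classes did not overlap without Lem 7 either. On the deposited TPM values Scn9a overlapped, with 1.27 in the severe Lem 2 and 0.54 in the moderate Veh 9, and Sytl4 did not. Ntsr1, a neurotensin receptor of deep-layer cortical neurons, was at 7.62 to 14.4 CPM in moderate and 3.03 to 6.58 CPM in severe units (-1.23 ± 0.21). The carbonic anhydrase-like Car10 was at 56.6 to 91.6 and at 12.9 to 52.6 CPM, and the growth factor adaptor Grb10, highest in Lem 7, at 28.5 to 122 and at 10.4 to 27.2 CPM. In TPM the classes of Grb10 overlapped, with 10.96 in the severe Lem 2 and 10.85 in the moderate Veh 8. L3mbtl1, Doc2a, Vill and Trarg1 were also among the 10 with the largest separated differences on the lower side.

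Of 15 genes around tau, 2 were separated in CPM, 1 lower and 1 higher, against 0.712% and 1.62% of all genes fitted. Gsk3b, a kinase that phosphorylates tau, was at 447 to 507 CPM in moderate and 248 to 445 CPM in severe units (-0.39 ± 0.15), and the difference was -0.11 with the level of short over long genes as a covariate. Fyn, a tyrosine kinase of the synapse that binds tau, was at 39.7 to 49.3 and at 51.9 to 65.8 CPM (0.47 ± 0.09), and 0.37 with the covariate. On the deposited TPM values the classes of Fyn overlapped, with 31.5 in the moderate Lem 4+9 and 29.1 in the severe Veh 5. The orexin receptors, the targets of lemborexant, were weakly expressed and overlapped: Hcrtr1 was at 1.70 to 6.602 and 0.86 to 2.69 CPM, and Hcrtr2 at 2.93 to 10.9 and 2.005 to 3.53 CPM, with the highest moderate value of both in Lem 7.

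**Figure D3:**
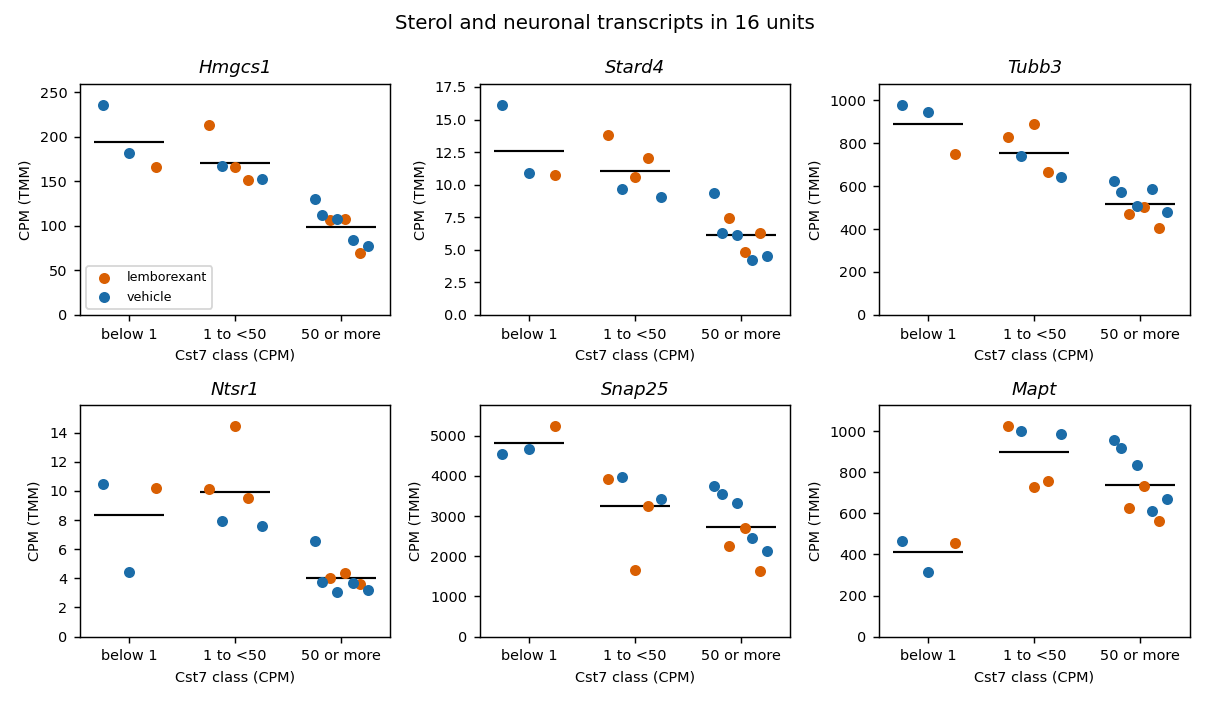
Level of 6 transcripts in CPM with TMM factors (y axes, from 0) in 16 units by Cst7 class in CPM (x axes), coloured by treatment, with the mean of each class as a line. For Hmgcs1, Tubb3 and Ntsr1 every severe unit lay below every moderate unit, while Stard4, Snap25 and Mapt overlapped. Mapt was lowest in the units below 1 CPM of Cst7, at 313 to 464 CPM.

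The 3 units below 1 CPM of Cst7 give the levels at almost no Cst7, and they differed from the members in more than glial genes. They carry the same genotype label, and Mapt was at 313 to 464 CPM against 561 to 1023 CPM in members, and the prion protein gene Prnp at 681 to 1043 CPM against 1047 to 2173 CPM. Whether the genotype label holds for these units was not tested, and the folds from them to the moderate class rest on it. Of all genes fitted, 2388 (12%) were higher and 1218 (6.11%) lower in every moderate unit than in every unit below 1 CPM. Of the 323 genes higher in every severe unit, 177 were also higher in every moderate unit than in every unit below 1 CPM. Of the 142 lower ones 4 were also lower in every moderate unit than in those units, and 4 were higher. Both steps share the moderate units, so their sizes are given side by side and no relation between them is drawn. The mean of Gfap was 7.24-fold higher in moderate units than in those below 1 CPM and 1.74-fold higher in severe than in moderate units. For C1qa the folds were 4.22 and 2.53, and for Cd74 they were 20.8 and 2.60. Serpina3n had folds of 2.71 and 1.71, C4b of 7.85 and 1.33, and Hmgcs1 of 0.88 and 0.58.

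**Figure D4:**
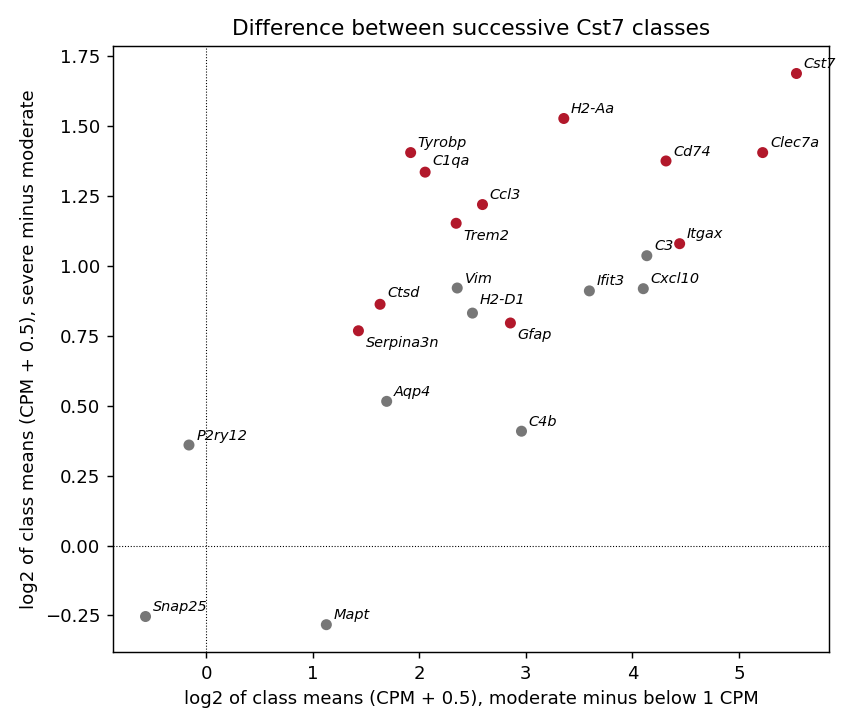
Difference of class means for 22 genes on the log2(CPM + 0.5) scale, moderate units minus units below 1 CPM of Cst7 (x axis) against severe minus moderate units (y axis). Red points are genes whose severe and moderate units do not overlap and grey points genes whose units overlap. C1qa lies at 2.06 and 1.34 and Gfap at 2.86 and 0.80, and C4b and Mapt combine a positive first step with values of 0.41 and -0.28 for the second.

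The severe units differed among themselves along with the composition of their reads. The short over long difference, the mean log2 level of genes of up to 1706 bases minus that of genes of 3818 bases or more, was 0.76 to 1.19 in Veh 3, Lem 6 and Veh 5, 0.19 to 0.50 in the other 5 severe units and 0.12 to 0.35 in moderate units. Ribosomal protein genes took 3.13 to 3.59% of the reads in those 3 units, 1.91 to 2.22% in the other severe ones and 1.56 to 2.11% in moderate ones. Veh 4, with 0.16 CPM of Cst7, had a difference of 0.82 and 2.74%, so that such reads also occurred with Cst7 near 0. The protein-coding genes higher in every severe unit had a median length of 1646 bases and the lower ones of 3475, with 2523 for all protein-coding genes fitted. All 76 genes for cytosolic ribosomal proteins had a positive fitted difference, with a median of 0.62 that was 0.22 without those 3 units and 0.06 with the short over long difference as a covariate.

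**Figure D5:**
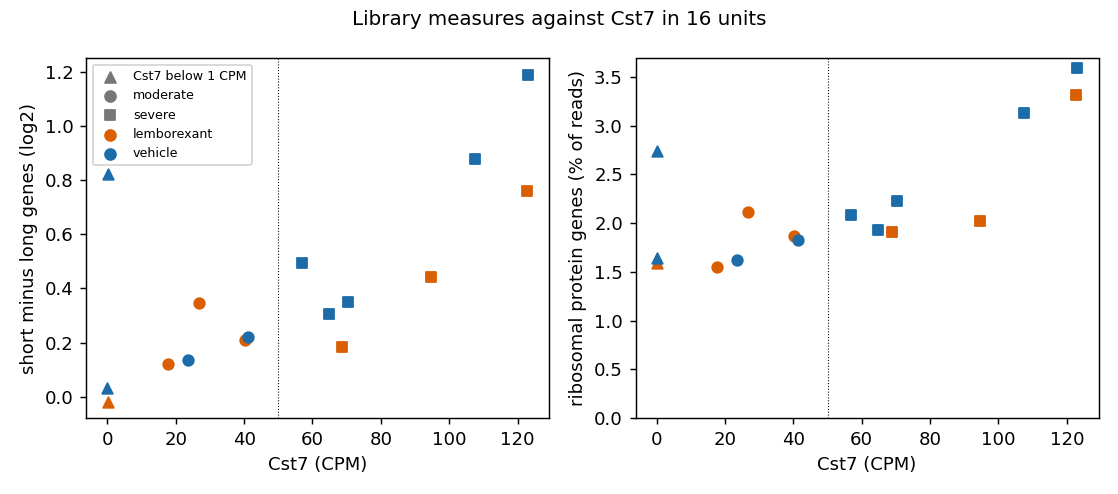
Short over long gene difference on the log2 scale (left, y axis) and share of reads on ribosomal protein genes in percent (right, y axis) against Cst7 in CPM (x axes) for 16 units. Triangles are units below 1 CPM of Cst7, circles moderate and squares severe units, coloured by treatment, and the dotted line marks 50 CPM. Veh 3, Lem 6 and Veh 5 lie at 107 to 123 CPM of Cst7 with 3.13 to 3.59% on ribosomal protein genes, and the triangle at 2.74% is Veh 4.

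Within the 8 severe units the slope of each gene on log2 Cst7 CPM was fitted, with Cst7 itself left out of the counts. The slope was added after seeing the data and uses the Cst7 values that chose the units, so it is given as a description. For the same reason the counts past the threshold are no evidence that a gene follows Cst7. At an adjusted p under 0.05 in edgeR's quasi-likelihood fit, with treatment as a covariate, 2488 of 19499 genes (12.8%) had a positive slope and 2194 (11.3%) a negative one. With the short over long difference as a covariate the counts were 1 and 81, and without Veh 3, Lem 6 and Veh 5 they were 4 and 15. Without Veh 5 alone they were 1342 and 688, and without the 2 units farthest from the median, Veh 5 and Lem 6, 400 and 101. On the log2(TPM + 1) scale limma gave 749 and 6860.

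Because Cst7 also chose the units, the lists are described by their median slopes and not by counts past the threshold. The median slope was 0.73 for disease-associated microglia, 0.92 for MHC class II, 0.39 for lysosomal genes and 1.07 for ribosomal protein genes. It was -0.05 over all genes. With the short over long difference as a covariate these medians were 0.32, 0.22, 0.30, 0.48 and 0.01. C1qa had a slope of 1.201 ± 0.16 (SE) log2 units per doubling of Cst7, and Clec7a of 0.98 ± 0.14. With the short over long difference as a covariate these slopes were 0.38 and 0.63, and neither was counted. Gfap had a slope of 0.61 ± 0.15, while Itgax had one of 0.29 ± 0.13 and was not counted. Igsf3, an adhesion gene, had a slope of -1.17 ± 0.13, and of -0.99 under the covariate, where it was not counted. The chemokines Ccl6 and Cxcl5, the tight-junction gene Cldn10, the ribosomal protein gene Rps2 and the mitochondrial chaperonin Hspe1 were among the 8 positive slopes with the smallest p. Igsf9b, Igsf3 and Tenm4, all adhesion genes with transcripts of 6904 to 16117 bases, were among the 8 negative ones.

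Treatment was not used to divide the units. Of 6 Lem units 3 were severe, and of 7 Veh units 5 were, with p = 0.592 by a two-sided Fisher's exact test and p = 0.315 with each of the 15 libraries counted. With class as a covariate, edgeR's quasi-likelihood test of Lem against Veh called 0 of 19933 genes (0%) at an adjusted p under 0.05, while 3912 had an unadjusted p under 0.05 and the lowest adjusted p was 0.0529. DESeq2 called 524 genes higher and 726 lower with lemborexant in the same units, and limma on log2(TPM + 1) 1 and 0. Without Lem 3+8 edgeR called 280 higher and 468 lower, and with the library number range as a covariate 296 and 293. Without Lem 5 it called 3 higher and without Veh 2 1 higher.

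Among the panel genes, the largest Lem minus Veh differences were those of the immediate early gene Arc (-1.62 on the log2 scale) and of C3 (1.097), and neither passed. Arc was at 23.5 to 277 CPM in the 3 moderate Lem units and at 267 and 279 in the moderate Veh units, and at 58.8 to 93.0 CPM in severe Lem and 210 to 463 in severe Veh units. Cst7 had a difference of -0.09, C1qa of 0.03 and Gfap of 0.05 with class held fixed. These differences carry the limit that class was itself set by Cst7 in the same libraries.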

How the data were processed

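Cortical RNA of 19 libraries was analysed. Per the file headers, each table that the authors deposited gives for 55487 genes the effective length, the TPM value and the estimated count, named NumReads. The submitters' processing notes name GRCm38 and the tools bcl2fastq and DRAGEN 3.9.3-8. The strand setting and the annotation release behind the counts are not stated in those notes, so overlapping and antisense genes cannot be told apart. Deposited estimated counts were rounded, and the deposited TPM values served 2 alternatives, as log2(TPM + 1) and log2(TPM + 0.1), for genes whose mean was 1 TPM or more. GENCODE's annotation of GRCm38 gave coordinates and, for 55141 genes, a symbol.

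Groups were taken from the titles, and replicates were numbered in accession order. Pairs of libraries were compared by a chi-square of counts per degree of freedom over genes with at least 20 reads. The 2 summed pairs gave 3.43 and 3.66, and the other 103 pairs of members 12.2 to 231. Counts were fitted with edgeR 4.0.16 (TMM, its expression filter, robust quasi-likelihood, R 4.3.3), the SE being the log2 difference over the square root of F. Tests were two-sided with Benjamini-Hochberg adjustment at 0.05, and were checked on simulated counts. Alternatives used DESeq2 1.42.0 and limma 3.58.1. Nothing ties the libraries to separate animals, so a p-value reflects only how these libraries vary, which may be technical.

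The members, the 37 gene lists, a panel of 35 genes and the rules were chosen with earlier results of these data known. Genes named are the panel, the 3 list members with the largest difference and a mean of at least 1 CPM, the 10 largest separated differences in each direction, and for the slope the 8 smallest p in each direction. List members named because they were separated, and Cyp2e1, were chosen after their values were seen. The slope within moderate units, planned for at least 6 units, could not be fitted with 5, and the slope within severe units was added after seeing the data. Some genes that the rules would name are left out here.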

Additional observations from a re-analysis of the deposited data

Results flagged for a closer look

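Within a class, 70 sets of units were searched for a highest or lowest value far from the rest by Dixon's criterion, which chance meets in about 1 of 20 sets, and 6 values met it. Among severe units, Lem 6 held 376 CPM of reads on mouse Apoe against 86.5 to 198 in the other 7, and 387 CPM of Serpina3n against 243 to 305. Veh 5 held 1172 CPM of Cd74 against 367 to 681, and 154 CPM of H2-Aa against 31.1 to 70.8. Both units were among the 3 with over 3% of reads on ribosomal RNA models, whose part in these values was not tested. Among moderate units, Lem 7 held 15.2 CPM of Slc17a7 against 97.0 to 128 in the other 4, and 3393 CPM of Mbp, a myelin protein gene, against 5831 to 6521. The same unit held the hypothalamic transcripts Pmch and Avp.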

How the results depend on the processing

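Of 163 genes named by the rules, 47 had severe and moderate units that did not overlap. Of their 1265 log2 differences under alternatives 0 turned direction, 1174 moved by less than the spread between units and 91 by more. The 47 were chosen for not overlapping in these same units. Leaving out units or fitting 1 treatment alone could thus hardly turn a direction, and no conclusion is drawn from the 0. Leaving out 1 unit or summed pair at a time gave 326 to 622 genes higher (most without Lem 2, then 584 without Lem 4+9 and 497 without Veh 9) and 122 to 434 lower (most without Lem 2). Genes at least 2-fold apart then numbered 47 (without Lem 6) to 150 (without Lem 4+9) higher and 18 (without Veh 5) to 129 (without Lem 2) lower. Within Veh units, 5 severe and 2 moderate, 2692 genes were higher and 2788 lower, 279 and 723 of them at least 2-fold. Within Lem units, 3 of each class, 2289 were higher and 1825 lower, with 511 and 307 at least 2-fold. Small classes overlap less often by chance alone, so counts from different numbers of units are not comparable in this section. On log2(TPM + 1), where 16623 genes were fitted, the counts were 98 and 322, with 12 and 15 at least 2-fold, and on log2(TPM + 0.1) 18 and 41 were at least 2-fold. Without an expression filter 51 were at least 2-fold lower. With the library number range as a covariate 159 and 45 were at least 2-fold apart. Among alternatives added after seeing the data, libraries numbered 1064 to 1602 alone gave 633 and 600 (172 and 162 at least 2-fold), leaving out Lem 7 and Veh 7 gave 550 and 349 (52 at least 2-fold lower), the short over long covariate gave 14 and 14 at least 2-fold, and leaving out the units over 3% ribosomal RNA gave 25 at least 2-fold higher.

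For the slope within severe units, leaving out 1 unit gave 1342 to 2654 genes with a positive and 688 to 2497 with a negative slope, both lowest without Veh 5. Without the treatment covariate the counts were 486 and 212, on log2(TPM + 1) 749 and 6860, on log2(TPM + 0.1) 748 and 6929, without the 2 farthest units 400 and 101, with the short over long covariate 1 and 81, and without the units over 3% ribosomal RNA 4 and 15. For Lem against Veh, no filter gave 4 higher and 3 lower, limma on log2(TPM + 1) 1 higher, DESeq2 524 and 726, each library counted separately 37 and 66, and the number range covariate 296 and 293. Leaving out 1 unit gave 0 to 280 higher and 0 to 468 lower, and only Lem 3+8, Lem 5 (3 higher) and Veh 2 (1 higher) gave any. Fisher's exact p for class and treatment was 0.315 to 1 under all alternatives. The causes of these moves were not tested. No paired analysis was possible because the labels give no replicate numbers shared between treatments. A depth of 22753316 to 31795633 reads per library leaves genes under 1 CPM, such as Cxcl1 in moderate units, with few reads, and 5 moderate units limit the comparison between classes.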
